A study of Homo sapiens with 6 samples.

Results

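YAP1 and 9 genes known as targets of YAP and the TEAD factors (CCN1, CCN2, ANKRD1, AMOTL2, AJUBA, LATS2, CRIM1, AXL and F3) were examined after knockdown of C1GALT1 in AGS, a line of human gastric adenocarcinoma cells. Members were found through the RefSeq accession that the array gives for each probe, and each of the 10 genes had 1 probe, so that 10 of 58201 different probes, and 10 of 22439 genes with a symbol, were followed. C1GALT1 encodes the galactosyltransferase that extends the first sugar of mucin-type O-glycans. The controls received a nontargeting siRNA (si-control) and the knockdown cells received si-C1GALT1-3, 1 of several siRNAs against C1GALT1. All cells were grown in serum, and RNA was taken 48 h after transfection from 3 samples per group, with a one-colour Agilent array for each. Both groups thus shared the line, the transfection and the serum, and the knockdown group rested on a single siRNA. Nothing in the labels says that samples came from separate cultures, so the p-values measure the spread between these samples, which may be technical.

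YAP1 and its paralog TAZ are transcriptional coactivators at the end of the Hippo pathway. The kinases LATS1 and LATS2 phosphorylate them and hold them in the cytoplasm, and when this is relieved, as in spread cells under tension or in serum, they enter the nucleus and bind DNA through the TEAD factors. Several targets act back on the pathway, since LATS2, AMOTL2 and AJUBA all influence YAP1, while CCN1 and CCN2 are secreted matrix proteins widely used as readouts of YAP1 activity.

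Arrays with the same replicate number shared a slide, on which si-control always lay in column 1 and si-C1GALT1-3 in column 2, so position and treatment cannot be told apart. On si-control replicate 2, a central region with low signal, holding 15.9% of gene spots, was set to missing. With that region still counted, the share of gene spots well above background ran from 66.2% (si-control replicate 2) to 72.7% over the arrays. All 10 members were so on each of the 6 arrays, and none but YAP1 had spots in the missing region. Values are log2 processed signal after quantile normalization. The log2 signal of C1GALT1 was 12.22, 13.03 and 12.62 in si-control replicates 1, 2 and 3 and 11.76, 11.98 and 11.13 after si-C1GALT1-3. It was lower on every knockdown array than on every control array, by a fitted log2 difference of -1.0003 ± 0.31 (SE, adjusted p = 0.265 by limma), and its unadjusted p missed the study's threshold, which is p under 0.01 and at least 2-fold. All 6 epithelial markers on the list (KRT8, KRT18, KRT19, EPCAM, CLDN4 and CDH1) were measured well above background on each array. Of the fibroblast markers COL1A2 and LUM were so on none and DCN on 1 array, while COL1A1, COL3A1 and PDGFRB gave signal. Of the endothelial markers CDH5 and VWF gave signal and KDR did so on 1 array, and of the leukocyte markers PTPRC, CD14 and CD3E did. At the brightest probe of each gene no marker passed the threshold, with fitted log2 differences from -1.03 (VWF) to 1.17 (COL3A1). Of the dimmer PTPRC probes 2 did, higher after si-C1GALT1-3, 1 of them well above background on no control array. Their part in the results below was not tested.

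TEAD factors recognise a short DNA core, CATTCC, which reads GGAATG on the opposite strand. The bases upstream of the annotated start are shown for the members with the most matches (CCN2 and ANKRD1) and for the 2 members whose group difference had a 95% interval clear of 0 (AJUBA and YAP1). Sequences are RefSeq's for GRCh38.p14, 250 bases up to the base before the start, read along the gene, with every CATTCC or GGAATG in capitals. They lie at chr6:131951373-131951622 (CCN2, minus strand), chr10:90921088-90921337 (ANKRD1, minus strand), chr14:22976843-22977092 (AJUBA, minus strand) and chr11:102110197-102110446 (YAP1, plus strand).
CCN2: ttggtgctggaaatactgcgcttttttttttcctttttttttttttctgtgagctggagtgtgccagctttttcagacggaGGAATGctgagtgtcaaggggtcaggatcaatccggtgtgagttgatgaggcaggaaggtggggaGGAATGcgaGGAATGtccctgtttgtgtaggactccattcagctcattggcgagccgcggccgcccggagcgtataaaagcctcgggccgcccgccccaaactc
ANKRD1: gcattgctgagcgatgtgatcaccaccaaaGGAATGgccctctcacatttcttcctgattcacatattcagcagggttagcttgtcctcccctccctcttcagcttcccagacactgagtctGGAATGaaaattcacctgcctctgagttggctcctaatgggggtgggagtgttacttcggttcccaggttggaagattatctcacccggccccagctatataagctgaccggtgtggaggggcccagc
AJUBA: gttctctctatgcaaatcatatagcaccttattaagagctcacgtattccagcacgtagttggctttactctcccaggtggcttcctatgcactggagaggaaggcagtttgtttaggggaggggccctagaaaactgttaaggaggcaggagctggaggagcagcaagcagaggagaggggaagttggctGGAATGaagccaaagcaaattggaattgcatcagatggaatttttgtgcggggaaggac
YAP1: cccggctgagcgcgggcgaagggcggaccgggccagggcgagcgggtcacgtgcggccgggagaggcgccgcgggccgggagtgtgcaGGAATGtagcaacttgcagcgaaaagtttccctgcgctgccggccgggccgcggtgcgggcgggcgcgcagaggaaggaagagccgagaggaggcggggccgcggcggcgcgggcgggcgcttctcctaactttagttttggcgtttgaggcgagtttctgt

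CCN2 held 3 matches, whose first bases lay at -169, -104 and -95 from the start, and ANKRD1 held 2, at -220 and -128. AMOTL2, AJUBA and YAP1 held 1 each, at -69, -59 and -162. Among the 8 members in the promoter table, 5 had a match in this window, against 12% of 27305 promoters. LATS2, AXL and F3 had none in the window, and CCN1 and CRIM1 had no entry. The CArG box bound by SRF, a factor that shares targets with YAP1, was found in 0 of the 8 members and in 1.18% of promoters. A match is a description of the letters and not evidence of a bound site, and only 1 annotated start per gene was read.

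None of the 10 genes passed p under 0.01 and 2-fold, a threshold that 2.64% of the 58193 probes tested passed (1.65% higher and 0.992% lower after si-C1GALT1-3). YAP1 itself was higher on every si-C1GALT1-3 array, at 1.46-fold (95% interval 1.16 to 1.84), whereas AJUBA and LATS2 were lower on every one, at 0.659-fold and by -0.33 on the log2 scale. Their adjusted p-values were 0.192, 0.218 and 0.402 (limma), and the interval of LATS2 included 0. Groups also did not overlap for 21.5% of all probes tested and for 25.6% of those well above background on every array. Of the classic readouts, CCN2 had a lower mean and CCN1 a slightly higher one, neither beyond the spread between arrays. Of the fitted log2 differences 4 were above and 6 below 0, from -0.60 to 0.55, with a median of -0.18 against -0.0047 over all probes tested. These were bulk samples, so fewer cells with a transcript and less of it per cell cannot be told apart.

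**Figure D1:**
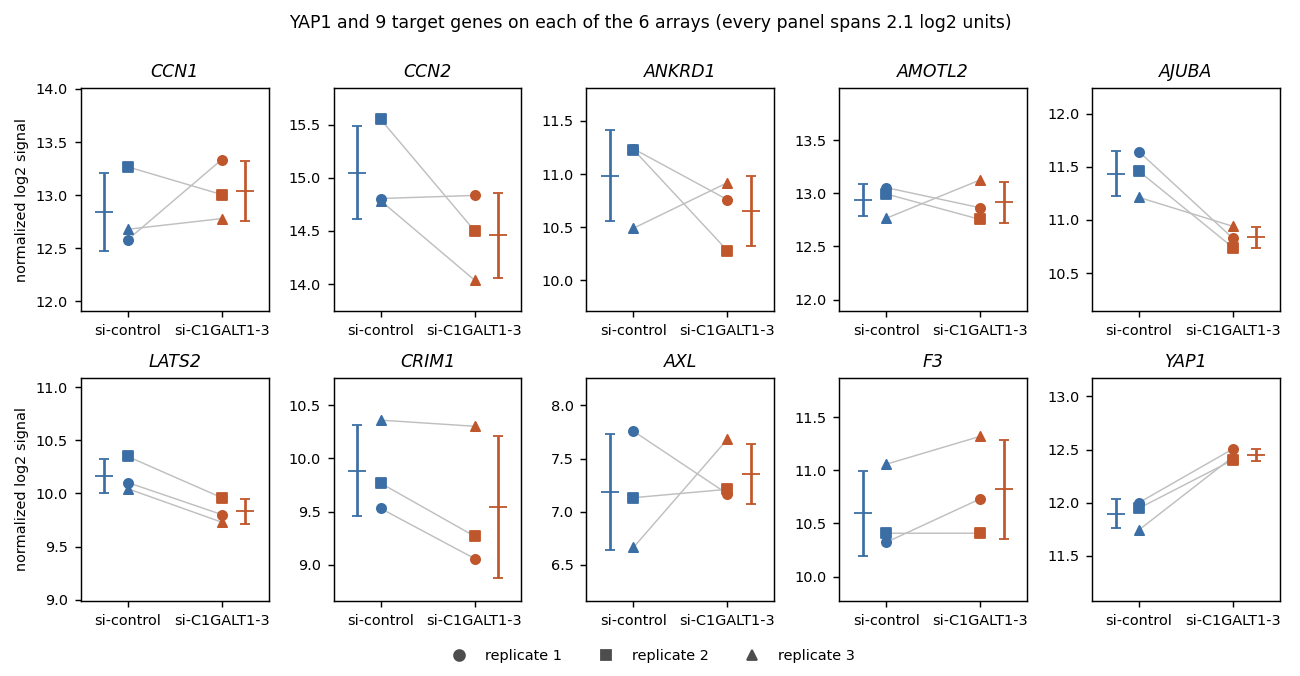
Normalized log2 signal of YAP1 and 9 target genes on each array, with si-control in blue and si-C1GALT1-3 in orange, marker shape giving the replicate and grey lines joining arrays of the same slide. Bars beside the points are the mean ± SD (n = 3 per group), and every panel spans the same range. AJUBA, LATS2 and YAP1 are the genes whose groups do not overlap, as was so for 21.5% of all probes tested.

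YAP1, the coactivator, had log2 signals of 12.001, 11.95 and 11.75 in si-control replicates 1, 2 and 3, and of 12.51, 12.40 and 12.43 after si-C1GALT1-3. All knockdown arrays lay above all control arrays, with means of 11.90 ± 0.14 and 12.45 ± 0.054 (SD, n = 3 each). The fitted log2 difference was 0.55 ± 0.13 (SE, adjusted p = 0.192 by limma). It was thus past an unadjusted p under 0.01 but under 2-fold, and the whole 95% interval, 0.22 to 0.88 on the log2 scale, lay within 2-fold. Within the slides the difference was 0.51, 0.45 and 0.69. The unadjusted p was no longer under 0.01 with the slide as a block (difference 0.55) or when any 1 of the 6 arrays was left out (0.47 to 0.60). Some other processing settings lost it too, and it was under 0.01 in 7 of all 19 alternatives.

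The YAP1 probe was printed at 10 spots on every array, which gives a check of its technical spread. Before normalization its median processed intensity was 5048, 3698 and 2664 in control replicates 1, 2 and 3, and it was 6423, 6103 and 4733 in the knockdown replicates. Within each slide even the lowest knockdown spot exceeded the highest control spot, for example 4500 against 2830 on slide 3. The arrays also differed in overall brightness, and over all gene spots the median log2 processed signal was 8.20 for control and 8.03 for knockdown on slide 1, 7.23 and 8.03 on slide 2, and 7.27 and 7.46 on slide 3. The 7.23 of si-control replicate 2 was taken without the mask, so it counts the spots of the low-signal region. Across slides the YAP1 spots did not separate by group before normalization. Those of si-control array 1, from 4392 to 5260, overlapped those of si-C1GALT1-3 array 3, from 4500 to 4965. The SD across spots of 1 array was 0.047 to 0.125 on the log2 scale. On si-control array 2, 2 of the 10 spots lay in the low-signal region, with intensities of 8.65 and 103. The scanner software had also marked both as outliers, so they were left out with or without the mask. With the region and all marked spots kept, the fitted log2 difference of YAP1 was 0.92 ± 0.33 (SE) and its unadjusted p was over 0.01.

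**Figure D2:**
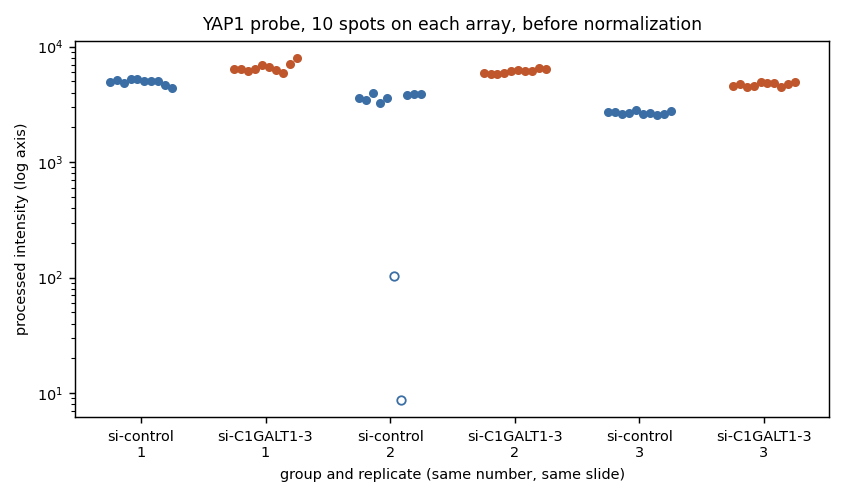
Processed intensity, on a log axis and before normalization between arrays, of the 10 YAP1 spots on each array, ordered by slide with si-control in blue and si-C1GALT1-3 in orange. Open circles are the 2 spots in the low-signal region of si-control replicate 2, at 8.65 and 103; within each slide the other knockdown spots all lie above the control spots.

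CCN2, or connective tissue growth factor, had log2 signals of 14.81, 15.55 and 14.79 in si-control replicates 1, 2 and 3 and of 14.83, 14.50 and 14.04 after si-C1GALT1-3. The groups overlapped, with si-C1GALT1-3 array 1 between the controls. Its fitted log2 difference was -0.59 ± 0.31 (SE, adjusted p = 0.469 by limma), and the 95% interval ran from -1.35 to 0.17, so that a fall of over 2-fold and a small rise were both within the error. Within the slides it was 0.029, -1.05 and -0.75.

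CCN1, also known as CYR61 and a relative of CCN2, had log2 signals of 12.58, 13.27 and 12.68 in the controls and of 13.33, 13.01 and 12.78 after knockdown. Its groups overlapped, and si-control replicate 2 and si-C1GALT1-3 replicate 1 were the highest arrays. A fitted log2 difference of 0.20 ± 0.25 (SE, adjusted p = 0.792 by limma) was found, with an interval of -0.42 to 0.82 that leaves out a 2-fold change in either direction.

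Both CCN genes were high on si-control replicate 2 and varied from array to array by a similar amount, so their difference within each array was set against its own spread. The log2 signal of CCN2 minus that of CCN1 changed by -0.79 between the groups, with SDs of 0.090 in the controls and 0.139 after knockdown (n = 3 each). The groups did not overlap in this difference, and the exact two-sided permutation p was 0.1, the smallest that the 20 splits of 3 against 3 arrays allow. Keeping the slides as pairs leaves 8 sign changes, and the exact two-sided p was then 0.25, again the smallest possible. This pair was chosen after its values were seen, out of 45 pairs of members computed, and adjusted over those pairs the exact p was 0.409. Any pair whose groups do not overlap takes these smallest values, so for a pair chosen this way neither p tests the difference. Of the 45 pairs 11 did not overlap. Single probes did not overlap for 21.5% of those tested and for 25.6% of those well above background on every array. Those shares are for single probes and are not a measure for pairs, which also share members. The share over pairs of other probes was not computed. Under the alternatives run for it the change was between -0.89 and -0.71.

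**Figure D3:**
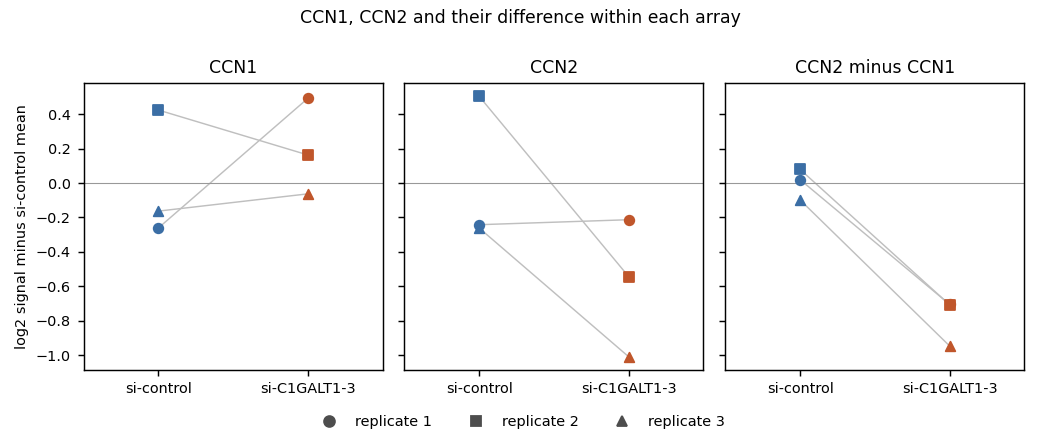
CCN1, CCN2 and CCN2 minus CCN1 within each array, as log2 signal minus the mean of the si-control arrays, with marker shape giving the replicate and grey lines joining arrays of 1 slide. The groups overlap for each gene alone, and for the difference the si-C1GALT1-3 arrays lie below the si-control arrays, with a mean change of -0.79.

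ANKRD1, a muscle ankyrin repeat protein that responds to stretch, had log2 signals of 11.24, 11.23 and 10.49 in the controls and of 10.76, 10.28 and 10.92 after knockdown. The arrays of slide 3 ran opposite to the other slides, with differences of -0.48, -0.95 and 0.43 for slides 1, 2 and 3. At -0.33 ± 0.29 (SE, adjusted p = 0.666 by limma), its fitted log2 difference was within the spread between arrays.

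AJUBA, a LIM protein of cell junctions that binds and restrains LATS kinases, had log2 signals of 11.64, 11.46 and 11.21 in si-control replicates 1, 2 and 3 and of 10.83, 10.74 and 10.94 after si-C1GALT1-3. All knockdown arrays lay below all controls, and the knockdown arrays were close to each other (10.84 ± 0.10 against 11.44 ± 0.22, SD, n = 3 each). The fitted log2 difference was -0.60 ± 0.16 (SE, adjusted p = 0.218 by limma), with a 95% interval of -1.002 to -0.20. Within the slides it was -0.82, -0.72 and -0.27. Leaving out 1 array gave differences of -0.71 to -0.50.

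LATS2, the kinase that phosphorylates YAP1 and is itself induced by it, had log2 signals of 10.10, 10.35 and 10.04 in the controls and of 9.80, 9.96 and 9.73 after knockdown. These groups were apart by a narrow gap, and the difference was nearly the same on each slide, at -0.30, -0.39 and -0.31. The fitted difference was -0.33 ± 0.15 (SE, adjusted p = 0.402 by limma), with a 95% interval of -0.70 to 0.035. With the slide as a block the SE was 0.11, the unadjusted p 0.042 and the adjusted p 0.275 (limma).

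AMOTL2, an angiomotin-like junction protein that binds YAP1, differed least, with log2 signals of 13.05, 12.99 and 12.76 in the controls and of 12.86, 12.75 and 13.13 after knockdown. The fitted log2 difference was -0.023 ± 0.16 (SE, adjusted p = 0.982 by limma), and the interval of -0.43 to 0.38 bounds any change to well within 2-fold. Its sign turned without normalization between arrays (0.049) and when some single arrays were left out (up to 0.058).

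CRIM1, a membrane protein that binds BMP ligands, had log2 signals of 9.53, 9.77 and 10.36 in the controls and of 9.06, 9.27 and 10.30 after knockdown. Slide 3 was the highest in both groups. In the fit without slides this spread made its fitted difference, -0.34 ± 0.40 (SE, adjusted p = 0.765 by limma), the least precise of the 10. With the slide as a block the SE was 0.15 and the adjusted p 0.353 (limma). Within slides CRIM1 was lower each time, by -0.47, -0.50 and -0.058.

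AXL, a receptor tyrosine kinase for GAS6, had log2 signals of 7.76, 7.13 and 6.66 in the controls and of 7.17, 7.21 and 7.68 after knockdown, with slides 1 and 3 running in opposite directions (-0.59 and 1.02). Its fitted log2 difference was 0.17 ± 0.32 (SE, adjusted p = 0.882 by limma), and it was -0.022 with the low-signal region kept and -0.091 without si-control replicate 3. F3, tissue factor, the starter of the extrinsic clotting cascade, had log2 signals of 10.32, 10.41 and 11.06 in the controls and of 10.73, 10.41 and 11.32 after knockdown. Slide 3 was again the highest in both groups, and the fitted log2 difference was 0.22 ± 0.32 (SE, adjusted p = 0.819 by limma), turning to -0.026 without si-C1GALT1-3 replicate 3.

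The counts over the members were then read beside those over the whole array. Groups did not overlap for 3 of 10 (YAP1 higher, AJUBA and LATS2 lower), against 21.5% of all probes tested and 25.6% of the probes well above background on every array. An unadjusted p under 0.05 was reached by 2 of 10 (YAP1 and AJUBA), against 13.8%, and p under 0.01 at any fold by 1 of 10, against 4.69%. An adjusted p under 0.05 (limma) was reached by 0 of 10, against 0.0842%. The 95% interval lay wholly within 2-fold for 5 of 10 (CCN1, AMOTL2, LATS2, AXL and YAP1), against 48.2% of all probes and 55.6% of those well above background on every array. All 3 slides differed in 1 direction for 5 of 10, lower for AJUBA, LATS2 and CRIM1 and higher for F3 and YAP1, against 44.1% of the 48794 probes with values on all 6 arrays. On slide 2, however, F3 differed by just 0.00044 on the log2 scale, which is in effect no difference. The interval reached past 2-fold for CCN2, ANKRD1 and CRIM1, and just past it for AJUBA and F3.

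**Figure D4:**
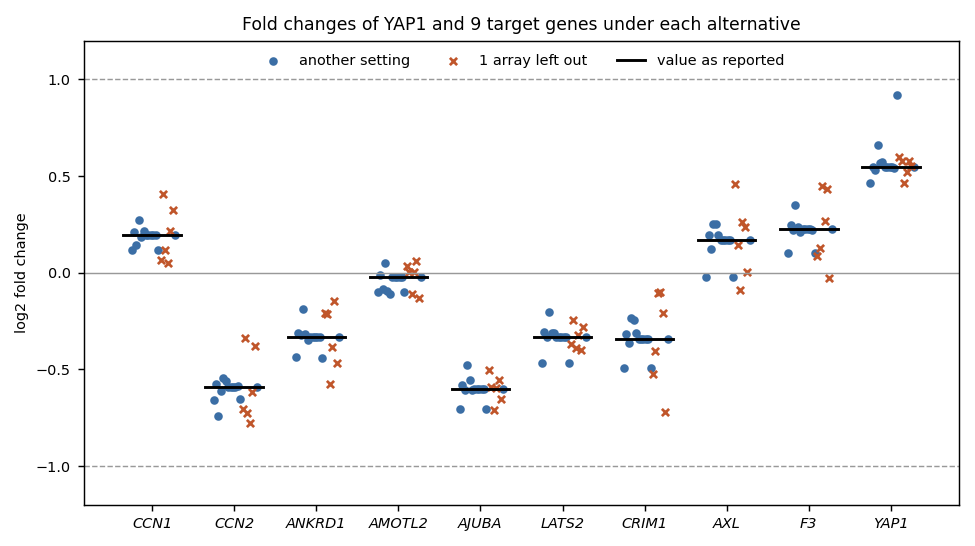
Fitted log2 fold change (si-C1GALT1-3 over si-control) of each gene as reported (black bar), under other settings (blue points) and with 1 array left out (orange crosses), where the dashed lines mark 2-fold. No point reaches a dashed line. CCN2, ANKRD1, AJUBA, LATS2 and CRIM1 stay below 0, and CCN1 and YAP1 stay above 0, YAP1 from 0.46 to 0.92.

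The genes around YAP1 were read from 5 lists, with the brightest probe standing for each gene, whereas the shares beside them are over all probes. Of 22438 named genes read at their brightest probe, 466 passed higher and 299 lower, and 3732 were at p under 0.05. The groups of 3146 did not overlap and were higher, and those of 2521 were lower. Among its partners (the paralog WWTR1, the TEAD factors, VGLL cofactors and junction proteins), 0 of 13 passed p under 0.01 and 2-fold by limma and 2 were at p under 0.05, against 13.8% of probes. Groups did not overlap for 4 of them, all higher, against 11.0% of probes higher and 21.5% in either direction. Of the 13, 10 were fitted higher and 3 lower, and the median log2 difference was 0.18, from 0.048 to 0.30 under the alternatives. Over the named genes 11761 were fitted higher and 10677 lower, with a median of 0.019. WWTR1, which encodes TAZ, had the lowest fitted difference, -0.54 ± 0.45 (SE, adjusted p = 0.658 by limma), opposite in sign to that of YAP1. TEAD1 was at -0.46, TEAD2 at 0.55, TEAD3 at 0.18 and TEAD4 at 0.21 on the log2 scale, none past p under 0.05. The highest was AMOT, an angiomotin that binds YAP1 at junctions, which was well above background on all 3 si-C1GALT1-3 arrays and on none of the control arrays. Set against the lowest signal that was well above background, it was at least 1.31-fold higher (adjusted p = 0.185 by limma).

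Of the 16 genes of the Hippo kinase core and its upstream regulators, each read at its brightest probe, 0 passed by limma and 6 were at p under 0.05, against 13.8% of probes, with a median log2 difference of 0.077. LATS1, the partner kinase of LATS2, had the highest, with log2 signals of 8.61, 9.43 and 9.02 in the controls and of 9.53, 9.88 and 9.62 after knockdown. Its fitted log2 difference was 0.66 ± 0.25 (SE, adjusted p = 0.330 by limma), opposite in sign to that of LATS2. At the brightest probes the lowest was DCHS1, a large cadherin that pairs with FAT4, at -0.93 ± 0.24 (SE, adjusted p = 0.235 by limma) with 2 control arrays, since its spot on si-control replicate 2 lay in the low-signal region. The probes of MOB1B, an activator of the LATS kinases named here after its values were seen, disagreed. Its brightest probe was at -0.097, whereas its 2 dimmer probes, well above background on all 6 arrays, passed the threshold at -1.42 ± 0.26 and -1.24 ± 0.24 (SE, adjusted p = 0.128 and 0.140 by limma). By the brightest probes, groups did not overlap for 7 of these genes, 2 higher and 5 lower, against 11.0% and 10.4% of probes.

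Of 14 other YAP and TAZ targets, 1 passed, higher, and 0 lower, against 1.65% and 0.992% of probes, and the median log2 difference was -0.041. The one was CCDC80, a secreted matrix protein, with log2 signals of 9.50, 10.40 and 10.37 in the controls and of 11.01, 11.48 and 11.25 after knockdown. Its fitted log2 difference was 1.16 ± 0.29 (SE, adjusted p = 0.203 by limma), and a second, dimmer probe gave 1.54. The call was lost when any 1 of the 6 arrays was left out, with differences from 0.87 to 1.32. The lowest was FOXF2, a forkhead factor, at -0.78 ± 0.34 (SE), and TGFB2 and IGFBP3 were not well above background on any array.

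SRF and its MRTF cofactors respond to actin and share targets with YAP1. The 11 measured SRF and MRTF targets had a median log2 difference of -0.25, and 1 passed, higher, and 0 lower, against 1.65% and 0.992% of probes. That gene was ACTA2, smooth muscle actin, with log2 signals of 9.32, 9.96 and 9.85 in the controls and of 11.29, 11.43 and 11.36 after knockdown. It rose by 1.64 ± 0.20 (SE, adjusted p = 0.0823 by limma), while ACTG2, another smooth muscle actin, was lowest at -0.71 ± 0.44 (SE). ACTA2 passed under all 19 alternatives.

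Of 12 relatives and binding partners of the members, 1 passed, higher, and 0 lower, against 1.65% and 0.992% of probes, with a median log2 difference of -0.030. TYRO3, the receptor tyrosine kinase of the AXL family, had log2 signals of 10.87, 11.00 and 11.32 in the controls and of 12.49, 12.22 and 12.03 after knockdown, a rise of 1.18 ± 0.20 (SE, adjusted p = 0.115 by limma) that passed under all 19 alternatives. AXL itself was at 0.17, MERTK, the other receptor of the family, at 0.46, and their ligand GAS6 at 0.12, none past p under 0.05. The difference between TYRO3 and AXL was not tested. The lowest was TFPI, the inhibitor of the pathway that F3 starts, at -0.98 ± 0.45 (SE, adjusted p = 0.415 by limma). CCN3 and CCN4, relatives of CCN1 and CCN2, were not well above background on any array.

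**Figure D5:**
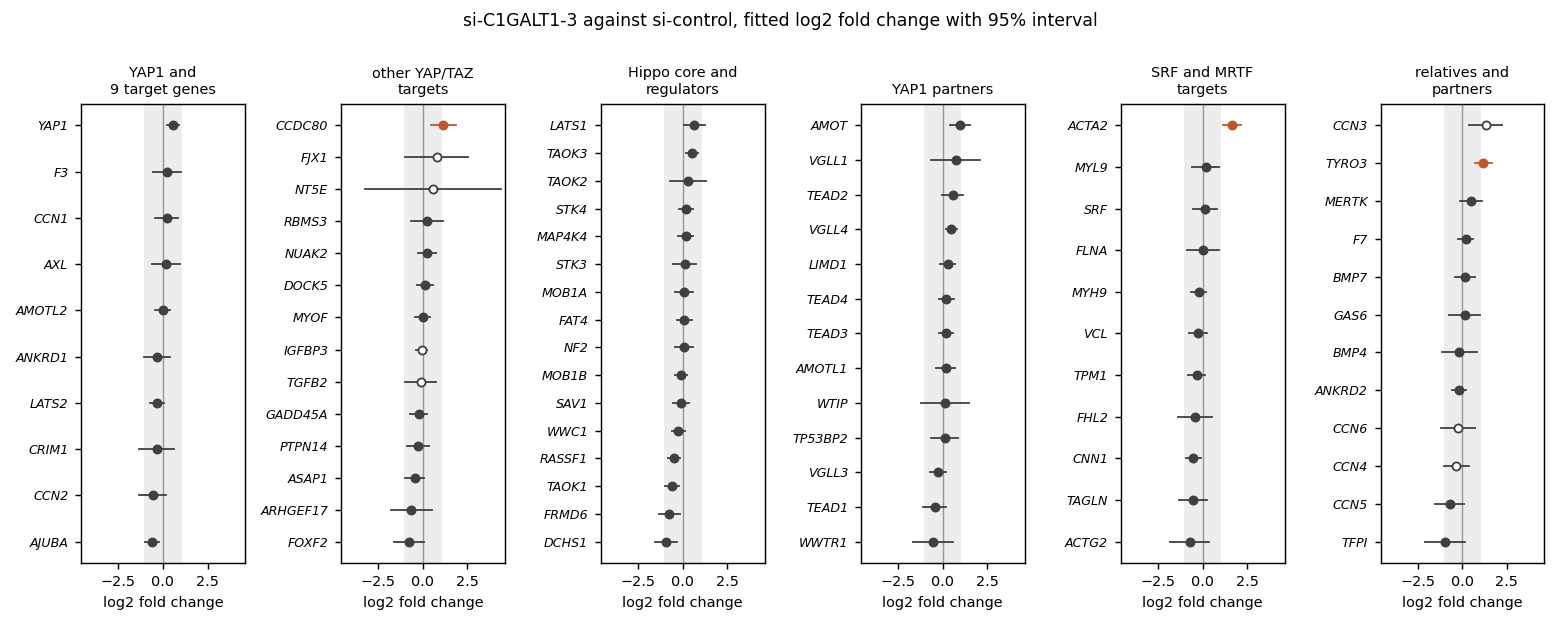
Fitted log2 fold change, si-C1GALT1-3 over si-control, with its 95% interval for YAP1 and 9 target genes and for the 5 lists around them; grey bands mark 2-fold either way. Orange genes (CCDC80, ACTA2 and TYRO3) passed p under 0.01 and 2-fold, and open circles are genes not well above background on all measured arrays of either group.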

How the data were processed

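RNA of 3 si-control and 3 si-C1GALT1-3 samples was hybridized to 1 array each. The authors deposited scanner output of Agilent Feature Extraction (version 10.5.1.1, per the submitters' processing notes), with an intensity for every spot. The software had subtracted background from the processed intensity, and nothing had been done to make arrays comparable. A series table repeats the background-subtracted intensity.

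Log2 processed signals were taken without control spots. Spots marked as outliers (100 to 424 per array) and, on si-control replicate 2, lines 113 to 288 and columns 59 to 115 were set to missing. Arrays were quantile normalized, spots of a probe averaged, and groups compared over all probes with limma 3.58.1 (lmFit and eBayes) in R 4.3.3, two-sided with Benjamini-Hochberg adjustment. Quantile normalization, limma and the threshold, p under 0.01 and at least 2-fold, follow the study's methods. Intervals are 95% intervals from the same fit. Precision is limited by the number of arrays. The test was checked on simulated arrays of this comparison: among 48794 probes with 200 changed, 100% of changes of 3 log2 units and 84% to 86% of changes of 2 log2 units were called, as were 256 unchanged probes. Smaller changes, such as those of the members, were not simulated, and the simulated arrays were drawn without any link between arrays of a slide.

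Probes were named by accession through a RefSeq table of GRCh38.p14. For a gene with several probes the brightest stood for it. Members and lists were chosen with earlier results of these data known. Genes named are the 10 members, C1GALT1, the highest and the lowest of each list among genes well above background throughout 1 group or both, and every listed gene past the threshold at that probe. TEAD1, TEAD2, TEAD3, TEAD4, MERTK, GAS6 and MOB1B were named after their values were seen. CNN2 and CD68 had no probe named this way.

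Replicate numbers share a slide, and deviations from the group means correlated at 0.198, 0.215 and 0.329 between arrays of the same number. The numbers were therefore taken as pairs, and the block was run as an alternative. The main fit leaves the pairs out, so SEs, intervals and p-values are unpaired wherever the block is not named. The other alternatives were no mask or a wider one, 75th percentile scaling or no normalization, normexp (offset 50) on the median spot signal, the series table with a floor of 10, leaving out dim probes, a trend and robust prior, the methods' t-test, keeping outlier spots, the mean over the probes of a gene, and leaving out each array. No mask together with kept outlier spots was added after seeing the data.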

Additional observations from a re-analysis of the deposited data

How the results depend on the processing

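Of the 10 members, 0 passed p under 0.01 and 2-fold under each of the 19 alternatives, and their median log2 difference stayed between -0.27 and -0.044. CCN1, CCN2, ANKRD1, AJUBA, LATS2, CRIM1 and YAP1 kept their sign under all 19. With 1 array left out CCN1 ran from 0.052 to 0.41, CCN2 from -0.77 to -0.34, ANKRD1 from -0.58 to -0.15, CRIM1 from -0.72 to -0.10 and LATS2 from -0.40 to -0.24. AXL turned to -0.022 without the mask, with or without the marked outliers, and -0.091 without si-control replicate 3, F3 to -0.026 without si-C1GALT1-3 replicate 3, and AMOTL2 to 0.049 without normalization. With 1 array left out AMOTL2 ran from -0.13 to 0.058, AXL from -0.091 to 0.46 and F3 from -0.026 to 0.45. The cause was not tested. YAP1 was at p under 0.01 in 7 of the 19. C1GALT1 passed the threshold when dim probes were left out.

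With the replicate as a block, 1604 probes passed, 1012 higher and 592 lower, against 1538, 961 and 577 without it. YAP1, AJUBA and LATS2 were then past an unadjusted p under 0.05 but not 0.01, with adjusted p of 0.214, 0.245 and 0.275 (limma). Of the members' calls past the threshold the pairing changed none.

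Over all probes, 474 were higher with no mask (471 with marked outliers kept as well, a setting chosen after seeing the data), 295 were lower with no normalization, 915 passed with normexp (497 higher) and 896 with the methods' t-test (560 higher, 336 lower). The share of calls that were higher was 62.5%, and 40.2% with no mask (40.0% with marked outliers kept), 72.6% with no normalization and 52.2% without si-control replicate 1. Leaving out 1 array gave 1126 to 1781 probes, 653 to 1064 of them higher and 473 to 768 lower. Scaling to the 75th percentile moved the median of all probes to -0.11, and YAP1 was at 0.53 there.

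CCDC80 no longer passed (0 genes of its list) with no mask (with or without marked outliers), with the series table, with the methods' t-test and when any 1 array was left out (0 to 0). In the lists of YAP1 partners and of the Hippo core the count was 0 to 1 when 1 array was left out: AMOT passed without si-control replicate 1 (1.14) and without si-C1GALT1-3 replicate 2 (1.13), and DCHS1 without si-C1GALT1-3 replicate 3 (-1.10). With 3 arrays per group, the 95% intervals of 5 of the 10 members reached past 2-fold.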
